A study of Mus musculus with 19 samples.

Results

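Cholinergic cells of high light scatter were compared with epithelial cells lacking the cholinergic reporter, both sorted from the noses of naive mice, in 10 of the 19 RNA sequencing libraries of the study. All genes of the deposited count table were examined, and the libraries were taken by their labelled gate: 5 of eGFP-positive cells (FSChi) and 5 of eGFP-negative cells (EpCAM). Every mouse carried the transgene Tg(RP23-268L19-EGFP)2Mik on a B6 background, in which a bacterial artificial chromosome drives enhanced green fluorescent protein (eGFP) from sequence of Chat, the gene of the enzyme that makes acetylcholine. The EpCAM cells therefore carried the same transgene as the FSChi cells. Tissue was digested with dispase and then with papain, and dead cells were excluded with propidium iodide. FSChi cells were negative for the leukocyte antigen CD45, positive for the epithelial adhesion molecule EpCAM, positive for eGFP and high in forward and side scatter. EpCAM cells met the same CD45 and EpCAM criteria without eGFP and were not divided by scatter. The other 9 libraries held eGFP-positive cells of low scatter (FSClow) and served here as a second reference. Age and sex are not in the labels used here. They do not say whether each library had its own animals; the p-values reflect variation among samples, which may be technical.

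Cholinergic cells of the nasal epithelium belong to the tuft or brush cell family, scattered epithelial cells with an apical tuft of microvilli that use taste signalling to sense the luminal content. In taste cells, and in many of their relatives outside the tongue, a taste receptor activates the G protein gustducin, phospholipase C releases calcium, and the cation channel TRPM5 depolarizes the cell. The family is known for making the cytokine interleukin 25, cysteinyl leukotrienes, prostaglandins and acetylcholine, and it depends on the POU factor encoded by Pou2f3. The eGFP-negative reference is a mixture of respiratory and olfactory epithelium with basal, ciliated, secretory, sustentacular and ionocyte-type cells and olfactory neurons.

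Total counts ranged from 1348428 (FSChi replicate 2) to 7477695 (FSChi replicate 3) in FSChi and from 4137303 to 6487644 in EpCAM, and genes with at least 1 count numbered 13062 to 17829 and 18053 to 18469. FSChi replicate 2 was the shallowest library and held the fewest genes. Levels below are in CPM, read counts relative to the library total scaled by the trimmed mean of M-values, and values per library run from replicate 1 to replicate 5. The FSChi libraries were unequal in transcripts of other nasal cells. The summed level of 20 olfactory sensory neuron markers was 4774, 254, 2017, 4397 and 2276 CPM in FSChi and 5621 to 8956 CPM in EpCAM. That of 29 secretory and gland markers was 8492, 762, 4684, 24879 and 13937 CPM in FSChi and 10836 to 49173 CPM in EpCAM. FSChi replicate 2 was the lowest FSChi library in both sums and replicate 4 the highest in the second. The part of these transcripts in the results was not tested, and each affected group is described below with its levels. The leukocyte genes Cd3e and Itgam had 0 and 1 counts over all FSChi libraries and 0 and 24 over all EpCAM libraries. In bulk libraries fewer cells of a type and less RNA per cell cannot be told apart.

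**Figure D1:**
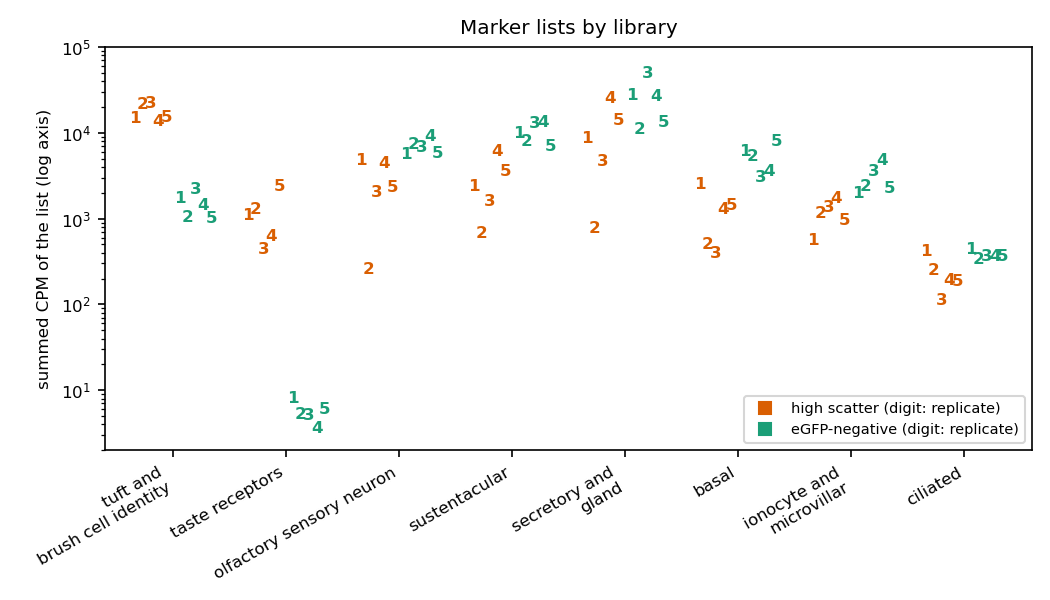
Summed CPM (log axis) of tuft and taste receptor genes and of markers of other nasal cells in FSChi and EpCAM libraries; each digit is a replicate. Tuft sums were 13417 to 21747 CPM in FSChi and 992 to 2175 CPM in EpCAM, while FSChi replicate 2 had the lowest FSChi sum for neurons, sustentacular and secretory cells.

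All 5 genes taken as markers of the high-scatter cells were higher in FSChi, and in none of them did the groups overlap. Gnat3 (chr5:17962570-18019668, GRCm38.p6), the alpha subunit of gustducin, measured 2912, 2600.2, 755, 1134 and 3144 CPM in FSChi and 2.75, 0, 0, 0 and 5.87 CPM in EpCAM. Its partner subunit gene Gnb3 (chr6:124834240-124840275) measured 2653, 2398, 679, 1383 and 3775 CPM in FSChi and 3.53, 1.43, 2.06, 2.03 and 16.3 CPM in EpCAM. The log2 fold changes were 10.17 ± 0.98 (SE, edgeR adjusted p = 2.0e-07) and 8.71 ± 0.94 (adjusted p = 8.3e-07). FSChi replicate 3 was the lowest FSChi library and EpCAM replicate 5 the highest EpCAM library for both. Trpm5 (chr7:143071529-143094642) measured 623, 1464, 1539, 777 and 1226 CPM in FSChi and 0 to 4.37 CPM in EpCAM (log2 fold change 9.58 ± 0.75). Ltc4s (chr11:50236461-50238532), the leukotriene C4 synthase gene, measured 162, 235, 200.4, 135 and 197 CPM in FSChi and 0 to 0.623 CPM in EpCAM (log2 fold change 9.19 ± 0.42). Krt19 (chr11:100140810-100145926), a keratin of simple epithelia, was the exception in size: 881, 1129, 463, 610.0 and 1461 CPM in FSChi against 339, 154, 222, 276 and 151 CPM in EpCAM gave a log2 fold change of 1.99 ± 0.44 (adjusted p = 0.0016). The eGFP-negative cells thus also held Krt19, and its call did not hold for log2(TPM + 0.1) values (adjusted p = 0.097, limma) or log2(TPM + 1) values (0.052). Without EpCAM replicate 5 the log2 fold changes of Gnat3, Gnb3 and Trpm5 were 11.54, 9.89 and 10.75. Chat itself, which the sort on eGFP selected for, was higher by 7.15 ± 0.41 on the log2 scale. Of the gate antigens, Epcam was higher by 1.71 ± 0.24, and Ptprc, which encodes CD45, measured 2.61 to 18.01 CPM in FSChi and 0 in every EpCAM library.

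Of 13340 genes tested, 1797 (13.5%) were called higher in FSChi and 1624 (12.2%) lower at an edgeR adjusted p under 0.05, together 25.6%. All counts of called list members below are to be read beside these shares. Genes near 0 in EpCAM passed the low-count filter only through eGFP-positive libraries, so they could only be called higher or not called. The median log2 fold change over all tested genes was -0.02. Of the called genes, 370 were at least 8-fold higher and 192 at least 8-fold lower. Of the calls, 52.5% were higher, which was 41.2% with the authors' size factors and 36.6% on the log2(TPM + 1) scale. The FSChi libraries lay entirely above the EpCAM libraries for 10.2% of tested genes and entirely below for 11.3%. The 15 largest rises at a mean log2 CPM of at least 3 included the bitter receptor genes Tas2r108, Tas2r138, Tas2r105 and Tas2r129, with Rgs21, Rac2, Il25 and Lrmp. The 15 largest falls included genes of secreted proteins (Ptgds, Muc5ac, Dmbt1 and 3 Bpifb genes), of the carboxylesterase Ces1a and of the transporter Slc47a1.

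**Figure D2:**
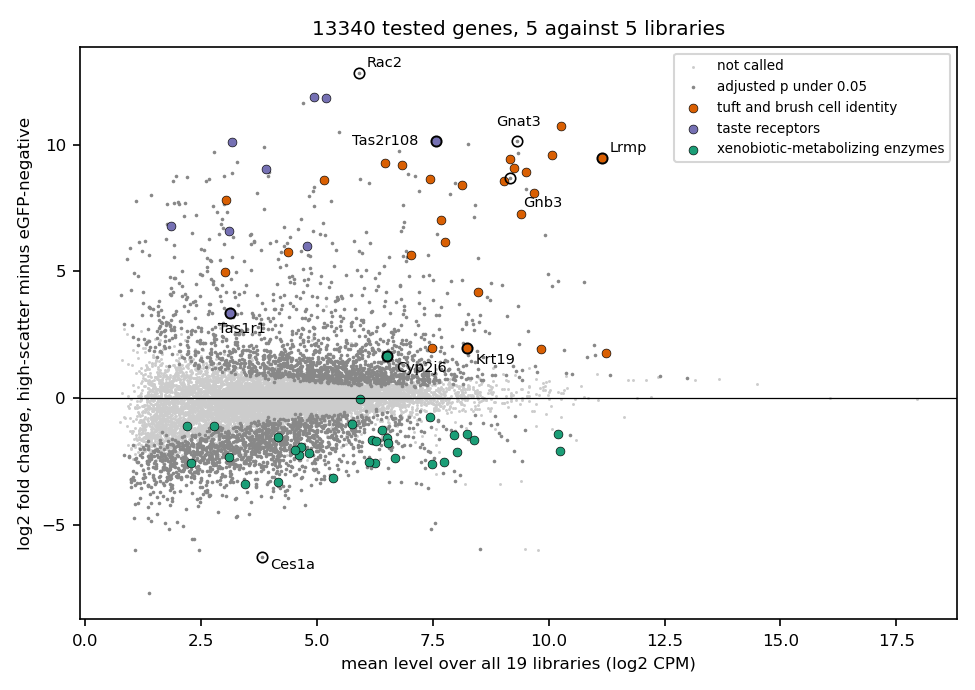
Log2 fold change of FSChi over EpCAM against mean level (log2 CPM) for 13340 tested genes, with called genes in dark grey and members of 3 lists in colour; selected genes are ringed and named. Tuft identity and taste receptor genes lie above 0 and most xenobiotic-metabolizing enzymes below, with Cyp2j6 as the called exception at 1.68.

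Taste receptor transcripts were high in FSChi and near 0 in EpCAM, with summed levels of 1084, 1294, 442, 622 and 2339 CPM in FSChi and 3.58 to 8.05 CPM in EpCAM. The table held 38 receptor genes: 35 bitter receptor genes (Tas2r), of which 33 lie on chromosome 6, and the 3 sweet and umami receptor genes (Tas1r). All 9 that passed the low-count filter were called higher in FSChi, beside 13.5% of all tested genes, with a median log2 fold change of 9.06, or 7.73 with the 3 genes lacking EpCAM counts at their lower bound. Genes with almost no EpCAM counts pass the filter through the eGFP-positive libraries alone, so such members had to differ. Tas2r108 (chr6:40493592-40494485) measured 294, 697, 254, 366 and 1114 CPM in FSChi and 1.96, 0, 0, 0.312 and 0 CPM in EpCAM (log2 fold change 10.18 ± 0.79) (edgeR adjusted p = 3.0e-09). Tas2r138 (chr6:40612315-40613310) measured 143, 115, 53.3, 75.97 and 178 CPM in FSChi and had no count in EpCAM, so that it was at least 901-fold higher against a floor of 3 counts over the EpCAM group. Tas2r105 (chr6:131686561-131687463), known as a cycloheximide receptor, measured 162, 118, 19.8, 44.98 and 239 CPM against no count and was at least 829-fold higher. FSChi replicate 5 was highest for all 3 genes and replicate 3 lowest for all 3. Tas2r118 measured 128, 49.8, 10.9, 11.4 and 73.01 CPM with 2 counts in all of EpCAM, a ratio of 626 (95% counting interval 173 to 5179). Tas2r137 measured 5.41, 28.9, 5.51, 6.91 and 12.4 CPM with 2 counts in EpCAM, and the count ratio was 113 (95% counting interval 30.8 to 939). Tas2r129 was at least 213-fold higher than in EpCAM, where it had no count. Tas2r126 measured 16.2 to 45.00 CPM in FSChi and was above 0 in EpCAM replicate 5 alone, with a log2 fold change of 6.62 ± 0.70. Reads of Tas2r paralogs that resemble each other may have been shared between genes, so values of single members are uncertain to that extent.

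Among the sweet and umami receptors, Tas1r3, the shared subunit, measured 38.8, 90.8, 40.6, 36.6 and 153 CPM in FSChi and 0.467 to 1.77 CPM in EpCAM (log2 fold change 6.02 ± 0.51). Tas1r1, the umami subunit, measured 12.9, 19.3, 6.72, 17.5 and 86.5 CPM in FSChi and 2.16, 2.14, 3.56, 2.34 and 3.31 CPM in EpCAM (log2 fold change 3.38 ± 0.73) (edgeR adjusted p = 0.0015). FSChi replicate 5 stood far above the others for Tas1r1, and the groups did not overlap for either gene. With log2(TPM + 0.1) values Tas1r1 was no longer called (adjusted p = 0.053, limma). The TPM values may lack the library of FSChi replicate 5, which no single-library file matched closely. Leaving out 1 library moved several of these folds by more than 1.5 times. Without FSChi replicate 5 the log2 fold change of Tas1r1 was 2.31 and Tas2r129 was at least 118-fold higher. Without FSChi replicate 1 the count ratio of Tas2r118, with its 95% counting interval in brackets here and below, was 337 (92.6 to 2789.6). EpCAM replicate 5 held every EpCAM count of Tas2r126, and without it Tas2r118 and Tas2r126 were at least 317-fold and 155-fold higher against the floor. Without EpCAM replicate 1 the count ratio of Tas2r108 was 4876 (1349 to 40265).

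The other 29 receptors did not pass the low-count filter and were not tested, though most were seen in FSChi. Of them, 28 had a count in at least 1 FSChi library, 5 in EpCAM and 14 in FSClow, with 2621, 25 and 37 counts in all. Per library, taste receptor genes with a count numbered 35, 20, 24, 25 and 37 in FSChi and 6, 4, 4, 4 and 6 in EpCAM. The untested receptors together measured 269, 79.5, 25.9, 34.2 and 355 CPM in FSChi replicates 1 to 5. Replicates 1 and 5 were the highest pair for 22 of these 29 genes, and 11 genes had counts in all 5 libraries. Without the low-count filter, 30 of the 38 were called higher and none lower by edgeR at the same threshold, beside 6.7% of the 24209 genes then tested called higher and 7.72% lower. Per unit of transcript length, in the TPM values (transcript counts relative to length and library) of the 4 usable FSChi single-library files, Tas2r108 was the highest receptor at 504 ± 271 TPM (SD, n = 4). Tas2r105 stood at 116 ± 80.1 TPM and Tas2r138 at 111 ± 36.4 TPM, which did not differ beyond their spread. The G protein genes Gng13, Gnat3 and Gnb3 stood at 2122 ± 942, 1957 ± 976 and 1410 ± 636 TPM, above every receptor, while Tas1r3 and Tas1r1 stood at 19.5 ± 10.9 and 6.17 ± 3.08 TPM. The 4 files may not include the library of FSChi replicate 5, the highest in CPM for Tas2r108, Tas2r105, Tas2r138, Tas1r3 and Tas1r1.

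**Figure D3:**
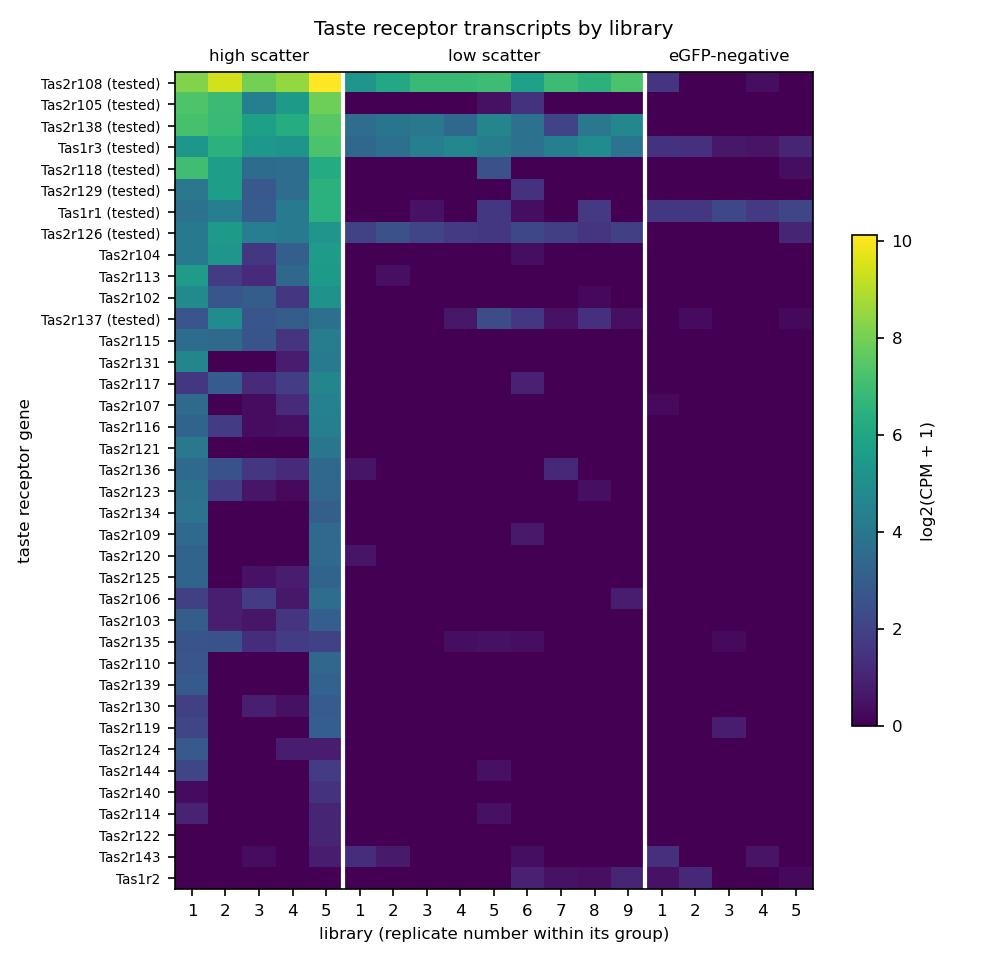
Level of 38 taste receptor genes, as log2(CPM + 1) in colour, in 5 FSChi, 9 FSClow and 5 EpCAM libraries (columns); genes that passed the filter are marked as tested. Most receptors are dark in EpCAM, few are bright in FSClow, and FSChi replicates 1 and 5 show 35 and 37 receptors with a count.

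Sequences before the annotated starts of the receptors are shown because 4 of the 9 tested ones share a motif with Rgs21, a gene that rose with them. RefSeq promoters (GRCm38.p6) spanning 250 bases before to 50 after the annotated start were searched on both strands for the octamer ATGCAAAT, the site of POU domain factors such as the one encoded by Pou2f3. The octamer was in 1.75% of 27025 promoters, in 1.53% of the 10158 belonging to tested genes, in 6.38% of 282 matched to genes called at least 8-fold higher in FSChi and in 0.676% of 148 matched to genes at least 8-fold lower. It was in 7 of the 34 taste receptor promoters found there, or 20.6%. The PU box GAGGAAGT, read by factors such as Spib, was in 3.28% of all promoters, 2.78% of tested ones, 4.61% of the higher set and 1.35% of the lower set. Its 13 matches in the higher set included Cd300ld, Cd300ld3, Cd300ld4, Cd300ld5 and Cd300lf. These genes are of the same family and may share promoter sequence, so the matches behind 4.61% are not independent. The Ets site CCGGAAGT was in 4.0%, 8.41%, 2.13% and 0.676% of the same sets, and the homeodomain site CAATTAA in 2.60%, 1.45%, 2.48% and 1.35%. The PU box and the Ets site share 6 of their letters, the other motifs do not, and a match is a description, not a site or a cause. In the following 80-base windows, written 5′ to 3′ on the strand of the gene, capitals mark the octamer. The Tas2r windows read it on the opposite strand, as ATTTGCAT, and lie on chromosome 6.
Tas2r108: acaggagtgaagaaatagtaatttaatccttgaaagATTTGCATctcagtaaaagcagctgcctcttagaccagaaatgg
Tas2r118: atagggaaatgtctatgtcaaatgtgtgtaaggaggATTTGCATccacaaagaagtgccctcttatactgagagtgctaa
Tas2r126: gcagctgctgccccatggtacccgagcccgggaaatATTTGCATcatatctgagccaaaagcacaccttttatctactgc
Tas2r137: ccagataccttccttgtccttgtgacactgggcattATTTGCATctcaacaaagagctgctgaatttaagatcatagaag
Rgs21: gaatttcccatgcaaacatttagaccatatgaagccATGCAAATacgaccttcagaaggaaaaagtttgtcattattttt
The windows are chr6:40493410-40493489 on the plus strand, chr6:23970141-23970220 on the minus strand, chr6:42434305-42434384 and chr6:40491010-40491089 on the plus strand, and chr1:144567824-144567903 on the minus strand. From the end of the motif to the annotated start there were 138, 116, 186, 184 and 192 bases in that order. The annotated start of a Tas2r gene may be its start codon rather than the start of its transcript. The Tas2r windows therefore need not lie in promoters, and their distances and the share of 20.6% are not comparable with those of other genes.

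Downstream of the receptors, the taste cascade was higher in part. Of 14 tested taste transduction genes, 9 were called higher, 2 lower and 3 not, with a median log2 fold change of 2.20. Plcb2, the phospholipase of the cascade, measured 237, 247, 151, 129 and 404 CPM in FSChi and 0 to 2.41 CPM in EpCAM (log2 fold change 8.19 ± 0.59). Calhm1 (chr19:47141035-47144174), a pore-forming channel subunit of ATP release in taste cells, measured 31.7, 28.9, 2.96, 21.8 and 62.7 CPM with 1 count in all of EpCAM, a ratio of 639 (95% counting interval 114 to 25282). No FSClow library had a Calhm1 count. Gng13, the gamma subunit of gustducin, was also present in EpCAM: it measured 459.7, 218, 139, 174 and 278 CPM in FSChi and 43.98, 76.8, 32.9, 55.8 and 79.99 CPM in EpCAM (log2 fold change 2.13 ± 0.39) and no overlap. Itpr3, the calcium release channel of taste cells, measured 32.7, 107, 27.7, 38.8 and 129 CPM in FSChi and 40.1, 35.6, 23.96, 35.2 and 19.3 CPM in EpCAM. Its groups overlapped, its log2 fold change was 1.10 ± 0.38 (edgeR adjusted p = 0.035), and the call was lost without FSChi replicate 2 (0.89), without FSChi replicate 5 (0.65) and without EpCAM replicate 1 (1.15), 3 (0.96), 4 (1.09) or 5 (0.97). It was also lost with RLE scaling (adjusted p = 0.059), without a filter (0.052), with only the compared libraries (0.068) and with the authors' size factors (0.080). Gnai2, an inhibitory alpha subunit, was higher by 2.27 ± 0.29, whereas Gna14 (0.37) and Gnb1 (-0.66) did not pass the test. The 2 lower members were the phosphodiesterase gene Pde1a and Ggt7. Pde1a was at -2.37 ± 0.83 (edgeR adjusted p = 0.039), a call lost without FSChi replicate 2, 3 or 5 and without EpCAM replicate 1, 2, 3 or 4 (-2.02 to -2.51), in DESeq2 (adjusted p = 0.063), without a filter and with expected counts, while without FSChi replicate 1 it was -3.11. Ggt7 measured 16.2 to 45.8 CPM in FSChi and 48.9 to 93.02 CPM in EpCAM and was not called on the TPM scales (limma adjusted p = 0.108 with a pseudocount of 0.1). Without EpCAM replicate 5 the log2 fold change of Plcb2 was 9.51, and without EpCAM replicate 4, which held its 1 EpCAM count, Calhm1 was at least 164-fold higher. Gnb1 was called lower without FSChi replicate 1, at -1.08, without EpCAM replicate 5, at -0.73, in DESeq2 (adjusted p = 0.021), with RLE scaling (0.035), with the authors' size factors (0.018), with the stricter filter of 10 CPM (0.044) and on both TPM scales (limma, 0.016 and 0.011).

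Regulators of G protein signalling, which shorten the active state of G protein alpha subunits, moved in both directions: 9 of 15 were called higher and 4 lower. Rgs21 (chr1:144519690-144567667), a small regulator known from taste cells, measured 64.9, 163, 18.1, 33.2 and 220.1 CPM in FSChi and had no count in EpCAM, so that it was at least 618-fold higher. Rgs13 measured 703, 691, 1057, 478 and 347 CPM in FSChi and 6.68, 0, 5.24, 7.63 and 1.51 CPM in EpCAM (log2 fold change 7.26 ± 0.60). Rgs2 measured 415, 653, 248, 247 and 362 CPM against 18.8, 33.03, 17.97, 20.7 and 13.6 CPM, with a log2 fold change of 4.21 ± 0.38. None of these 3 genes had overlapping groups, and FSChi replicate 3 was lowest for Rgs21 while it was highest for Rgs13. Rgs22 was higher by 3.41 ± 0.39 and Rgs14 by 6.61 ± 0.65, and without EpCAM replicate 1, which held every EpCAM count of Rgs14, the latter was at least 319-fold higher. Rgs12, a large regulator of several domains, measured 67.9 to 76.04 CPM in EpCAM and 10.4 to 26.9 CPM in FSChi and fell by 1.88 on the log2 scale. The list counts rested in part on single libraries, with 5 higher without FSChi replicate 5 and 1 lower without FSChi replicate 2.

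**Figure D4:**
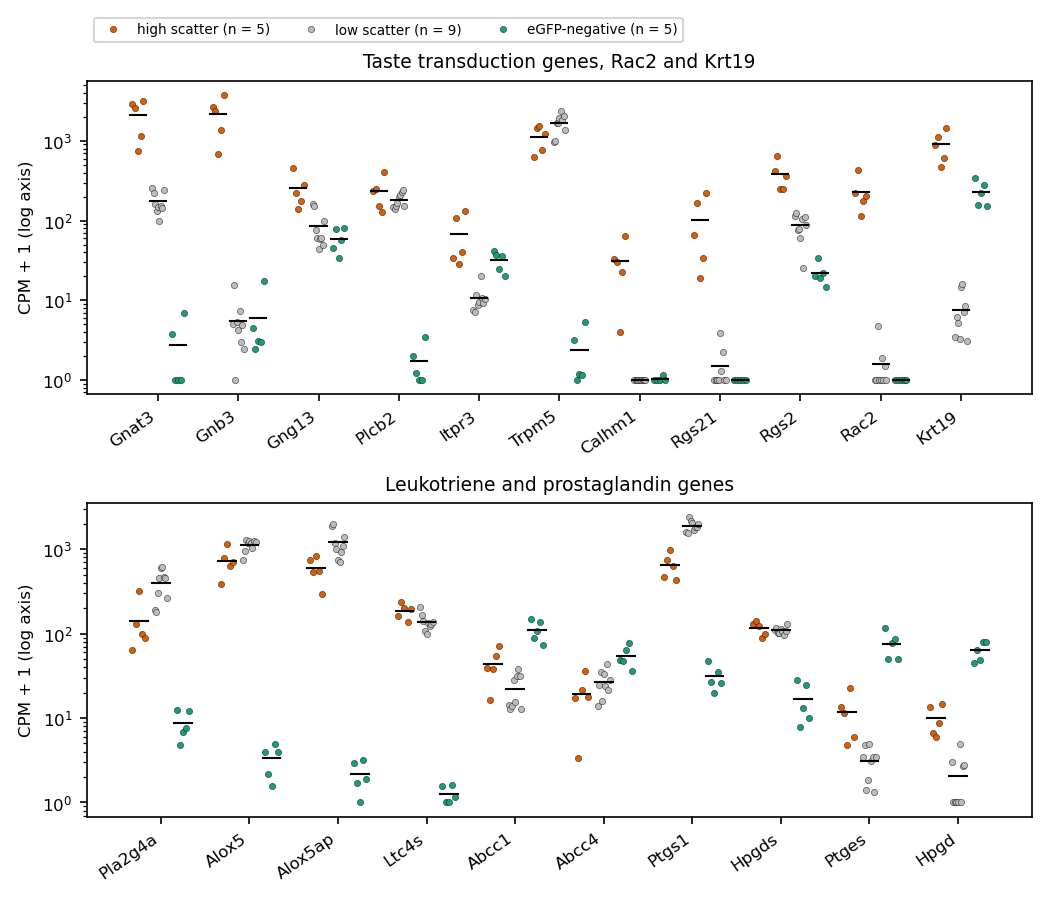
CPM + 1 (log axis) of named genes in every FSChi (n = 5), FSClow (n = 9) and EpCAM (n = 5) library; bars are means. FSChi points lie above all EpCAM points for Gnat3, Gnb3, Plcb2, Trpm5, Calhm1, Rgs21, Rgs2, Rac2 and Krt19 in the upper panel, and Alox5, Alox5ap and Ltc4s lie above while Abcc1 and Abcc4 lie below in the lower panel.

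The identity genes of tuft and brush cells were higher throughout. Of 28 in the table, 25 were tested and 25 called higher, beside 13.5% of all tested genes. The median log2 fold change was 8.08. Gfi1b, Hmx3 and Ptprc among them had at most 2 counts in EpCAM and passed the filter only through eGFP-positive libraries. Other members near 0 in EpCAM, such as Avil, were likewise bound to come out higher, so the count of 25 is not a test of the list. Lrmp, an endoplasmic reticulum protein gene of tuft cells, measured 3449, 5019.5, 4356, 3085 and 4289.7 CPM in FSChi and 5.10, 9.03, 3.74, 4.05 and 6.33 CPM in EpCAM (log2 fold change 9.48 ± 0.31) (edgeR adjusted p = 3.0e-16). The FSChi values differed by less than 2-fold among themselves and lay far above EpCAM. Sh2d6 was higher by 8.57 ± 0.37 and Avil, which encodes the actin-binding protein advillin, by 8.08 ± 0.50. Dclk1, the microtubule-associated kinase long used as a tuft marker, was present in both gates, at 302, 334, 662, 296 and 142 CPM in FSChi and 79.3, 86.98, 112, 97.5 and 67.9 CPM in EpCAM (log2 fold change 1.97 ± 0.32). Its FSChi replicate 5 lay nearest to EpCAM, and the groups did not overlap.

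Of 15 tested transcription factors of tuft and chemosensory cells, 11 were called higher, 1 lower and 3 not. Pou2f3 measured 88.2, 240.2, 170.1, 108 and 144 CPM in FSChi and 2.36, 3.56, 1.68, 1.40 and 5.57 CPM in EpCAM (log2 fold change 5.66 ± 0.36). Spib, an Ets factor shared with B cells, measured 129.8, 447, 434, 214 and 314 CPM against 0 to 1.57 CPM, a log2 fold change of 8.41 ± 0.53. The groups stood apart for both. The zinc finger repressor gene Gfi1b had 1 count in EpCAM and a ratio of 733 (95% counting interval 131 to 29012), and the homeobox gene Hmx3 had 2 counts and a ratio of 853 (95% counting interval 236 to 7048). Its neighbour Hmx2 was higher by 5.79 ± 0.61. Etv1, an Ets factor, was higher by 5.40 ± 0.41, Ascl2 by 4.41 ± 0.50 and Sox9 by 3.33 ± 0.30. The epithelial factor Elf3 and the calcium-regulated factor Nfatc1 were present in both gates and higher by 1.96 ± 0.32 and 1.39 ± 0.21. Ascl3, which marks microvillar cells and ionocyte-type cells, was the member called lower, at -2.45 ± 0.82 (edgeR adjusted p = 0.032). Its call was lost without FSChi replicate 1 or 2 and without EpCAM replicate 2, 3 or 4 (-2.19 to -2.46), in DESeq2 (adjusted p = 0.19), without a filter (0.070), with only the compared libraries (0.104) and with expected counts (0.054), and without FSChi replicate 4 it was at -3.60. Without EpCAM replicate 4 Gfi1b was at least 188-fold higher and the count ratio of Hmx2 was 159 (43.7 to 1321), and without EpCAM replicate 5 the log2 fold change of Ascl2 was 5.42.

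Of 10 tested leukotriene genes, 4 were higher, 2 lower and 4 not called. The higher ones were Ltc4s, given above, and the following 3 genes. Pla2g4a, the phospholipase that frees arachidonate, measured 63.2, 129, 323, 99.3 and 87.5 CPM in FSChi and 11.6, 3.80, 5.80, 6.70 and 11.3 CPM in EpCAM. Alox5, the 5-lipoxygenase gene, measured 388, 796, 1160.5, 626 and 699.9 CPM against 0.562 to 3.90 CPM. Alox5ap, its activating protein, measured 755, 536, 834, 547 and 292 CPM against 0 to 2.18 CPM. The log2 fold changes were 4.15 ± 0.47, 8.26 ± 0.43 and 8.95 ± 0.57, the groups did not overlap, and replicate 3 was the highest FSChi library in each. Lta4h, which makes leukotriene B4, was at 32.96 to 50.6 CPM in FSChi and 47.8 to 67.5 CPM in EpCAM and did not pass the test (-0.45), but was called lower in DESeq2 (adjusted p = 0.016), with RLE scaling (0.039) and with the authors' size factors (0.027). Mgst2 and Mgst3, which can also conjugate glutathione to leukotriene A4, were not called (-1.58 and -0.39). The exporter genes Abcc1 and Abcc4 fell by 1.34 and 1.52 on the log2 scale, and the groups did not overlap. Without FSChi replicate 3 the log2 fold change of Pla2g4a was 3.53.

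Of 9 tested prostaglandin and thromboxane genes, 3 were higher and 3 lower. Ptgs1, the constitutive cyclooxygenase, measured 472, 743, 968, 636 and 431 CPM in FSChi and 46.9, 25.4, 19.1, 34.3 and 25.3 CPM in EpCAM (log2 fold change 4.43 ± 0.28). Hpgds, the hematopoietic prostaglandin D synthase, measured 130.3, 139.8, 123, 87.4 and 98.2 CPM against 27.3, 6.89, 12.2, 23.7 and 8.89 CPM, a log2 fold change of 2.87 ± 0.29. Both stood apart between the gates. Ptgds, the other prostaglandin D synthase, fell by 4.29, or by 5.17 without FSChi replicate 3, and its call ended in DESeq2 (adjusted p = 0.054). Ptges, which makes prostaglandin E2, measured 48.7 to 117 CPM in EpCAM and 3.76 to 21.7 CPM in FSChi (-2.81 ± 0.47), and the degrading enzyme Hpgd fell by 2.79. The reductase gene Cbr1 was higher by 0.85 ± 0.23.

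Of 8 tested genes of acetylcholine handling, 3 were higher and 1 lower. Beside Chat, Slc18a3, the vesicular acetylcholine transporter, measured 10.6, 45.00, 39.2, 38.8 and 91.8 CPM in FSChi and no count in EpCAM, at least 376-fold higher. Slc18a3 lies within the Chat locus, sequence of which drives the reporter. Slc44a4, a transporter of the choline transporter-like family, measured 117, 243, 145, 172 and 169 CPM in FSChi and 46.9, 44.2, 52.03, 46.9 and 30.7 CPM in EpCAM (log2 fold change 1.94 ± 0.33) and no overlap. Ache, the acetylcholine-degrading esterase, measured 1.65, 4.02, 0.941, 4.67 and 5.67 CPM in FSChi and 18.3, 8.32, 5.62, 20.9 and 8.59 CPM in EpCAM (log2 fold change -1.90 ± 0.57), and its groups overlapped. Its call ended without EpCAM replicate 4 (-1.68). Vesicle exocytosis genes were divided, with 6 of 24 higher and 7 lower, or 4 lower without EpCAM replicate 2. Over all tested genes the shares higher and lower were 13.5% and 12.2%. The secretory small G protein genes Rab27b and Rab3b were higher by 1.91 ± 0.18 and 1.81 ± 0.24, and Stxbp2, a syntaxin-binding protein of granule release, by 1.63 ± 0.18. The neuronal syntaxin gene Stx1a measured 43.4 to 59.7 CPM in EpCAM and 2.41 to 17.4 CPM in FSChi and fell by 2.29.

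Of 7 tested genes of the type 2 cytokine response, 4 were higher and 3 were not called. Il25 measured 963, 1039.7, 503, 608 and 309 CPM in FSChi and 0 to 1.37 CPM in EpCAM (log2 fold change 10.76 ± 1.09). Il17rb, a subunit of the interleukin 25 receptor, measured 131, 246, 251, 123 and 77.97 CPM against 0.562 to 3.09 CPM, a log2 fold change of 6.17 ± 0.37. Il4ra and Il13ra1, the chains of the type II interleukin 4 receptor, were present in both gates. Il4ra measured 75.7, 178, 178, 84.7 and 147 CPM in FSChi and 22.4, 18.1, 19.5, 7.63 and 12.5 CPM in EpCAM (3.05 ± 0.32), and Il13ra1 was higher by 2.59 ± 0.37, with FSChi replicate 3 far above the other libraries. None of the 4 overlapped between groups. The signalling genes Il17ra and Stat6 were tested and not called. The alarmin gene Il33 was not called at -1.48, but was called lower in DESeq2 (adjusted p = 0.022), with RLE scaling (0.040), the authors' size factors (0.037), the stricter filter (0.049) and both TPM scales (limma, 0.019 and 0.0048), without FSChi replicate 4 (-2.01) and without EpCAM replicate 1 (-1.74). Without EpCAM replicate 1 the count ratio of Il25 was 4731 (1618 to 22942).

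Signalling genes best known from leukocytes were high in these CD45-negative cells. Of 22 tested kinases, phosphatases and adaptors, 14 were called higher and 2 lower, with a median log2 fold change of 2.94. Ptpn6, which encodes the phosphatase SHP-1, measured 582, 945, 904, 542 and 539.8 CPM in FSChi and 24.5, 35.4, 35.2, 32.3 and 33.4 CPM in EpCAM (log2 fold change 4.45 ± 0.22). Vav1, an exchange factor for small G proteins, measured 186, 622, 1028, 424 and 472 CPM against 2.36, 0.238, 0.562, 1.71 and 0 CPM, a log2 fold change of 9.08 ± 0.71. Rac2 (chr15:78559169-78572783), the blood-cell member of the Rac family, measured 222, 427, 113, 177 and 199.9 CPM in FSChi and had no count in EpCAM, at least 1674-fold higher. The groups were apart in all 3 genes. Inpp5d, the lipid phosphatase SHIP1, was higher by 7.63 ± 0.51. The kinase genes Matk and Bmx were higher by 8.65 ± 0.46 and 7.05 ± 0.55, and the adaptor genes Sh2d7, Fyb and Skap2 by 9.69 ± 0.65, 10.03 ± 0.56 and 3.57 ± 0.25. Cd300lf, an inhibitory receptor, was higher by 9.77 ± 0.45, and Cd79b, a B cell receptor subunit, by 6.93 ± 0.51. St6gal2, a sialyltransferase, was at least 233-fold higher. Lcp2, the adaptor SLP-76, went the other way, with 9.64 to 25.7 CPM in EpCAM and 0 to 6.35 CPM in FSChi (-3.31 ± 0.87), and its call ended in DESeq2 (adjusted p = 0.053). Ptprc was at least 79-fold higher, with FSChi replicate 3 far above the other libraries, and the test failed for log2(TPM + 1) values (adjusted p = 0.086, limma). Without EpCAM replicate 1 Fyb was at least 1704-fold higher, the log2 fold change of Sh2d7 was 10.31 and the count ratio of Cd300lf was 2227 (616 to 18392). Without EpCAM replicate 4 the count ratio of Inpp5d was 1009 (279 to 8336), without FSChi replicate 3 Ptprc was at least 31.7-fold higher, and without FSChi replicate 4 the log2 fold change of Lcp2 was -4.75.

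The apical cytoskeleton and the keratins of simple epithelia were higher in part. Of 17 tested microvillus and apical actin genes, 10 were higher and 1 lower. Espn, an actin-bundling protein gene, measured 219, 186, 148, 132 and 187 CPM in FSChi and 2.55, 5.23, 2.43, 4.05 and 3.92 CPM in EpCAM (log2 fold change 5.58 ± 0.31). The paired simple keratin genes Krt8 and Krt18 were higher by 2.08 ± 0.33 and 1.78 ± 0.31, whereas Krt7, also a keratin of simple epithelia, measured 202 to 336 CPM in EpCAM and 46.3 to 86.98 CPM in FSChi and fell by 2.05. Krt5, the basal cell keratin, measured 149.8, 11.2, 3.76, 35.3 and 185 CPM in FSChi and 555, 465, 293, 342 and 989.5 CPM in EpCAM. Its log2 fold change was -2.78 ± 0.94 (edgeR adjusted p = 0.038), a call lost without FSChi replicate 2 (-2.50), 3 (-2.50) or 4 (-2.63) and without EpCAM replicate 1 (-2.80), 2 (-2.82) or 5 (-2.42), in DESeq2 (adjusted p = 0.052), without a filter (0.060) and with only the compared libraries (0.067), while without FSChi replicate 5 it was -3.40. Of 28 tested pan-epithelial and junction genes, 17 did not pass, 8 were higher and 3 lower, beside 13.5% and 12.2% of all tested genes. Cldn7, a claudin, was higher by 2.65 ± 0.32. Over all keratins 3 of 14 were higher and 4 lower, or 2 lower without FSChi replicate 2, beside the same shares.

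Most genes of the sodium pump and ion transport list that passed the test were lower. Of 17 tested sodium pump and transport genes, 3 were higher and 10 lower, beside 13.5% and 12.2% of all tested genes. Fxyd6, a regulator of the sodium pump, measured 483, 288, 417, 260.0 and 294 CPM in FSChi and 17.3, 22.3, 25.1, 16.4 and 28.3 CPM in EpCAM (log2 fold change 3.99 ± 0.23). Every FSChi library lay above every EpCAM library. The epithelial sodium channel genes Scnn1b and Scnn1g fell by 3.21 and 3.29, and the chloride channel gene Cftr fell by 3.49. Foxi1, the master factor of ionocytes, measured 32.4 to 79.5 CPM in EpCAM and 0.354 to 17.4 CPM in FSChi (-2.99 ± 0.83), a call that ended in DESeq2 (adjusted p = 0.076). In the ionocyte list 9 of 14 were lower and 2 higher, and the latter were Itpr3 and Hepacam2, which is also a tuft gene and was higher by 3.64 ± 0.27. Of 20 voltage-gated and potassium channels, 4 were higher and 7 lower. The higher ones included Kcnq1 (43.7, 130.2, 52.1, 44.2 and 91.4 CPM in FSChi, 11.98, 4.52, 11.98, 11.8 and 5.72 CPM in EpCAM, 2.95 ± 0.35 on the log2 scale), the calcium-activated channel gene Kcnn4 (1.95 ± 0.30) and Kcnh2 (2.16 ± 0.54), whose call ended on the TPM scales (limma adjusted p = 0.23 with a pseudocount of 0.1). Without FSChi replicate 4 the log2 fold changes of Scnn1b and Foxi1 were -4.66 and -3.73.

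Receptors for nucleotides and metabolites moved in both directions. Of 7 tested purinergic and adenosine receptors, 3 were higher and 2 lower. Adora1, an adenosine receptor coupled to inhibitory G proteins, measured 23.04, 24.1, 26.9, 20.3 and 45.7 CPM in FSChi and 0 to 0.904 CPM in EpCAM (log2 fold change 5.65 ± 0.43). P2ry2 was higher by 2.05 ± 0.33. P2ry1 and P2ry14 fell by 2.93 and 2.05, and P2ry1 measured 3.29, 0, 0.941, 1.31 and 7.44 CPM in FSChi against 21.99, 12.8, 20.03, 21.5 and 25.2 CPM in EpCAM. Casr, the calcium-sensing receptor, measured 10.1, 21.7, 9.003, 5.23 and 9.92 CPM against 1.37, 1.19, 2.25, 0.935 and 1.81 CPM and was higher by 2.82 ± 0.54. Hcar2, a receptor of hydroxybutyrate and nicotinic acid, measured 56.1 to 169 CPM in EpCAM and 11.2 to 28.2 CPM in FSChi and fell by 2.47. None of these 6 genes overlapped between groups. Without FSChi replicate 5 the log2 fold change of P2ry1 was -3.74, and without FSChi replicate 4 that of P2ry14 was -2.91.

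Antigen presentation, innate sensing and chemokine genes differed in their calls, beside 13.5% higher and 12.2% lower over all tested genes. None of 8 tested genes of major histocompatibility complex (MHC) class II presentation was called by edgeR or DESeq2, and 1, Cd74, had an unadjusted edgeR p under 0.05. Without FSChi replicate 4, the highest FSChi library in their summed level, 2 were lower. Of 15 class I genes, 5 were higher and none lower, or 3 higher without FSChi replicate 3. H2-D1 measured 1072, 1492, 1103, 721 and 889.6 CPM in FSChi and 246, 179, 247, 188 and 350.2 CPM in EpCAM (log2 fold change 2.12 ± 0.24), and H2-T23 was higher by 1.88 ± 0.28. Of 9 Toll-like receptor and inflammasome genes, 2 were lower, among them Tlr4, the endotoxin receptor, at 0.403 to 1.42 CPM in FSChi and 3.33 to 12.5 CPM in EpCAM (-2.98 ± 0.76), a call that ended on the TPM scales (limma adjusted p = 0.35 with a pseudocount of 0.1). Its co-receptor gene Cd14 fell by 2.23. None of 11 chemokine genes was higher and 4 were lower. Cx3cl1 fell by 2.08, and Cxcl5, a neutrophil attractant, fell by 5.58. FSChi replicate 4 alone of the FSChi libraries had Cxcl5 counts, and without it the gene was at least 74.9-fold lower.

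Early response genes, which rise during tissue digestion, were mostly not called. Of 26, 2 were higher and 5 lower, or 1 lower without FSChi replicate 2, beside 13.5% and 12.2% of all tested genes. The higher ones were Egr2 (161 to 287 CPM in FSChi, 18.4 to 63.4 CPM in EpCAM, 2.66 ± 0.61 on the log2 scale) and Egr3 (3.99 ± 0.60). Of 92 nuclear-encoded respiratory chain genes, 10 were higher and none lower, beside the same 13.5% and 12.2%. The counts of higher ones without EpCAM replicate 1 and without EpCAM replicate 5 were 4 and 25. Uqcrh, a complex III subunit, measured 330.4, 204, 146, 183 and 277 CPM in FSChi and 76.2, 119, 73.9, 85.2 and 102 CPM in EpCAM (log2 fold change 1.32 ± 0.32). Ndufa1, a complex I subunit, was higher by 1.44 ± 0.34. Of 13 mitochondrially encoded genes 4 were higher, or 1 without FSChi replicate 1, and of 76 cytosolic ribosomal protein genes 1 was higher.

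**Figure D5:**
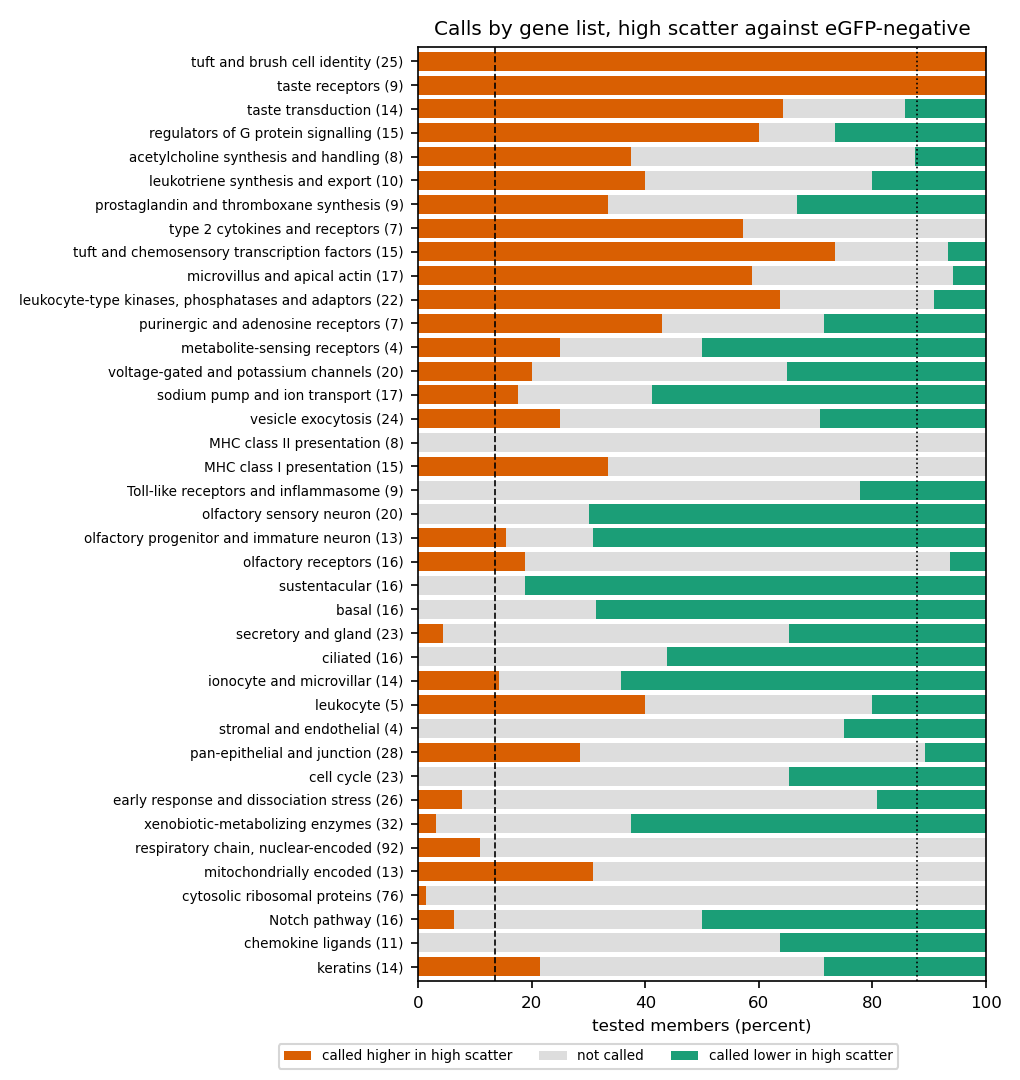
Percent of tested members of each gene list (number tested in brackets) called higher, not called or called lower in FSChi against EpCAM; dashed and dotted lines mark the 13.5% and 12.2% of all tested genes called higher and lower. All tested tuft identity and taste receptor genes were called higher, and olfactory neuron, sustentacular, basal and ciliated lists held no higher call.

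Genes of xenobiotic metabolism, for which nasal epithelium is known, were mostly lower in FSChi. Of 32 tested, 20 were lower and 1 higher, beside 12.2% of all tested genes called lower. Ugt1a6a, a glucuronosyltransferase, measured 2.59, 0, 0.672, 6.35 and 5.67 CPM in FSChi and 44.4, 34.2, 25.1, 42.8 and 25.8 CPM in EpCAM (log2 fold change -3.41 ± 0.56). Por, the reductase that serves microsomal cytochromes P450, measured 129, 108, 149, 357 and 232 CPM against 599, 427, 560.4, 650.1 and 484 CPM and fell by 1.48. The groups were apart for both. Gstm1, a glutathione transferase, fell by 1.67. Cyp2j6, a cytochrome P450, was the higher member, at 109, 169, 92.99, 135 and 268 CPM in FSChi and 46.1, 37.1, 50.9, 64.5 and 42.2 CPM in EpCAM (1.68 ± 0.25). The summed level of the list of 34 genes was 3834, 1444, 2307, 7972 and 5323 CPM in FSChi and 9168 to 17822 CPM in EpCAM. FSChi replicate 4 was its highest FSChi library and replicate 2 its lowest, as for sustentacular markers, whose part in these values was not tested.

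Of the markers of other epithelial cells that passed the test, most were lower in FSChi. Of 16 tested basal cell markers 11 were lower. Lamb3, a laminin chain, fell by 3.62 and Col17a1, a hemidesmosome collagen, by 3.45. Trp63, the basal cell factor, measured 21.9, 0, 0.806, 4.48 and 15.9 CPM in FSChi and 96.6, 61.1, 81.98, 94.1 and 30.9 CPM in EpCAM (-3.04 ± 0.70, or -3.82 without FSChi replicate 1), and the water channel gene Aqp3 fell by 3.30. Of 16 sustentacular markers 13 were lower, Cbr2 among them, which measured 1901 to 2587 CPM in EpCAM and 152 to 723 CPM in FSChi (-2.49 ± 0.48). Of 16 ciliated cell markers 9 were lower, and the dynein gene Dnah5 fell by 3.66, or by 5.02 without FSChi replicate 4. Of 23 secretory markers 8 were lower and 1 higher. The antiprotease gene Wfdc2 fell by 1.98, while Cst3, the cystatin C gene, was the higher one (1.09 ± 0.30). Bpifa1, an abundant airway secretion, measured 4234, 388, 302, 5782 and 11619 CPM in FSChi and 12282, 1629, 5653, 13466 and 4270.3 CPM in EpCAM and was not called. Its groups overlapped widely.

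Olfactory neuron markers were lower than in EpCAM yet not absent. Of 20 tested, 14 were lower and none higher, and all 20 were called higher than in FSClow, or 8 when only the compared libraries were fitted. Omp, the mature neuron marker, measured 1796, 1.61, 749, 1748 and 729 CPM in FSChi and 1550.3, 2552, 2031, 2910.2 and 1817 CPM in EpCAM and was not called (-1.11). Cnga2, the odorant transduction channel, measured 51.3, 0, 80.2, 116 and 103 CPM against 256, 218, 318, 421 and 197 CPM (-1.99 ± 0.67), a call lost without FSChi replicate 1 or 3 and without EpCAM replicate 1, 3 or 4 (-1.85 to -2.08), in DESeq2 (adjusted p = 0.17), without a filter (0.071), with only the compared libraries (0.084), with expected counts (0.055) and with log2(TPM + 0.1) values (limma, 0.076). Gnal, the olfactory G protein, fell by 1.63, a call that ended when only the compared libraries were fitted (edgeR adjusted p = 0.067). FSChi replicate 2 was near 0 for Omp and Cnga2 and the highest or next to highest FSChi library for Tas2r108 and Lrmp. Of 13 progenitor and immature neuron genes 9 were lower, Dcx by 3.17, and 2 higher, of which Kit, a receptor tyrosine kinase, was higher by 2.05 ± 0.21.

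In the Notch pathway 8 of 16 tested genes were lower and 1 higher. The receptor gene Notch1 measured 23.4 to 51.8 CPM in EpCAM and 0.804 to 13.1 CPM in FSChi and fell by 2.42, and the target gene Hes1 fell by 2.73. Of 23 cell cycle genes 8 were lower and none higher, with 5 without EpCAM replicate 5 and 13 without FSChi replicate 4. The proliferation marker Mki67 measured 2.59, 4.82, 7.39, 24.6 and 2.13 CPM in FSChi and 31.2, 33.7, 27.7, 25.4 and 38.7 CPM in EpCAM (-1.86 ± 0.56, or -2.92 without FSChi replicate 4), and the cyclin gene Ccnd2 fell by 2.86.

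The largest falls included genes at or near 0 CPM in most FSChi libraries, such as Ces1a and Dmbt1. Ces1a, a carboxylesterase, measured 0.470, 0, 1.48, 0.187 and 0 CPM in FSChi and 5.10, 43.5, 96.4, 70.7 and 22.6 CPM in EpCAM (log2 fold change -6.26 ± 0.93), and without FSChi replicate 3 the count ratio of EpCAM to FSChi was 219 (74.6 to 1061). Slc47a1, a cation extruder, measured 2.82, 0, 0.134, 0.560 and 2.48 CPM against 29.6, 25.2, 30.3, 52.8 and 19.9 CPM (-4.67 ± 0.67, or -5.41 without FSChi replicate 1). Car12, a carbonic anhydrase, measured 10.3, 0, 2.28, 3.55 and 7.44 CPM against 96.8, 83.9, 75.8, 119 and 87.1 CPM (-4.21 ± 0.65). The groups were apart in these 3. The mucin gene Muc5ac fell by 4.59, or by 5.77 without FSChi replicate 4, and Bpifb4 fell by 4.94, or by 7.08 without FSChi replicate 3. The calls of the secreted protein genes Dmbt1 (-5.18 ± 1.73), Bpifb6 (-5.98 ± 2.00) and Bpifb1 (-3.93 ± 1.39) rested on few libraries. Dmbt1 measured 0.235, 0, 80.8, 0.187 and 0 CPM in FSChi and 293, 166, 2352, 35.5 and 346 CPM in EpCAM and was at -3.64 without EpCAM replicate 3 (edgeR adjusted p = 0.108), and without FSChi replicate 3 its count ratio of EpCAM to FSChi was 4265 (1180.4 to 35217). Its call also ended without FSChi replicate 1, 2, 4 or 5, without a filter and with only the compared libraries. The call of Bpifb6 ended without any 1 of 7 libraries (-5.51 without EpCAM replicate 3 to -6.15 without EpCAM replicate 4) and that of Bpifb1 without any 1 of 7 (-3.61 without FSChi replicate 3 to -3.84 without FSChi replicate 5). Without FSChi replicate 3 Bpifb6 was at -8.70, and without FSChi replicate 4 Bpifb1 was at -5.86. Both calls also ended without a filter and with expected counts, and that of Bpifb1 with only the compared libraries and with log2(TPM + 0.1) values.

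Against FSClow, which shares the reporter and the sort but not the scatter gate, 2069 genes (15.5%) were higher in FSChi and 1241 (9.3%) lower. Both comparisons use the same FSChi libraries, so their values are given side by side. Several taste genes were higher in FSChi in this direct test. Of the tested receptors, Tas2r105, Tas2r118 and Tas2r129 had few FSClow counts, passed the filter through FSChi and so had to differ, and no count over the receptors is read from this comparison. Rgs21, Rac2 and Calhm1, near 0 in FSClow and EpCAM, likewise passed the filter through FSChi and had to differ. Gnat3 measured 98.01 to 258 with a median of 153 CPM in FSClow, and FSChi was higher by 3.61 ± 0.58 on the log2 scale (edgeR adjusted p = 1.1e-04), a call missed with log2(TPM + 0.1) values (adjusted p = 0.051, limma). Gnb3 measured 0 to 14.7 with a median of 3.94 CPM in FSClow (8.91 ± 0.73), and Krt19 measured 2.11 to 15.1 with a median of 5.12 CPM (7.11 ± 0.43). Every FSClow library lay below every EpCAM and FSChi library for Krt19. Tas2r108 measured 38.2 to 154 with a median of 111 CPM in FSClow, with 2.49 ± 0.43 on the log2 scale (adjusted p = 0.11 with log2(TPM + 0.1) values in limma), and Tas2r138 was higher in FSChi by 2.95 ± 0.34. Rgs21 measured 0 to 2.87 with a median of 0 CPM in FSClow (7.71 ± 0.80), Rac2 0 to 3.78 with a median of 0 CPM (8.63 ± 0.59), Calhm1 0 in all 9 libraries, and Slc44a4 2.97 to 19.4 with a median of 7.97 CPM (4.08 ± 0.29). The core tuft list was mixed, with 4 of 25 higher than FSClow, 6 lower and 15 not called. Trpm5 (-0.56), Ltc4s (0.43) and Pou2f3 (-0.35) were not called, Il17rb fell by 1.15 and Ptgs1 by 1.55 against FSClow, and Dclk1 was higher by 1.35 ± 0.27. Without FSClow replicate 5 the log2 fold change of Rgs21 was 9.06, and without FSClow replicate 3 that of Rac2 was 9.78. The counts of genes lower than FSClow were 808 without FSChi replicate 1 and 798 without FSChi replicate 4.

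Some genes were at least 16-fold higher than each of the references, and the following were chosen from them after their values were seen. Il10, the gene of an anti-inflammatory cytokine, measured 86.8, 56.2, 23.9, 40.1 and 111 CPM in FSChi, at most 0.907 CPM in FSClow, and was 6.20 above EpCAM and 7.57 above FSClow on the log2 scale. Bdnf, a neurotrophin gene, measured 106, 74.7, 17.9, 23.5 and 96.8 CPM in FSChi and 1.96, 2.85, 3.18, 0.312 and 5.42 CPM in EpCAM, with 4.51 and 9.90. The lipase genes Lpl and Lipc measured 117, 126, 14.4, 91.1 and 231 CPM and 146, 93.2, 18.8, 54.7 and 265 CPM in FSChi, with log2 fold changes over EpCAM of 7.58 and 8.34. FSChi replicate 3 was the lowest FSChi library for all 4 genes, and no FSChi library overlapped with EpCAM or FSClow. The genes were picked for their fold, and Il10, Lpl and Lipc, near 0 in both references, passed the filter through FSChi. Their separation follows from that choice and is no separate result. The zinc finger gene Ovol3 measured 171, 163, 47.2, 83.6 and 204 CPM (6.45 over EpCAM), the matrix protein gene Tnc 157, 731, 128, 112 and 286 CPM (4.96) and the cadherin gene Cdh13 151, 181, 126, 167 and 275 CPM (4.09). FSChi replicate 2 stood far above the others for Tnc, and without it the log2 fold change over EpCAM was 4.25. Over EpCAM the log2 fold changes were 6.86 for Il10 without EpCAM replicate 2, 7.73 for Lipc without FSChi replicate 5 and 7.38 for Ovol3 without EpCAM replicate 5. Over FSClow that of Il10 was 8.24 without FSClow replicate 8, and Bdnf was at least 420.4-fold higher without FSClow replicate 6.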

How the data were processed

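RNA of sorted nasal cells was sequenced in 19 libraries, of which 10 (FSChi and EpCAM) were compared and 9 (FSClow) served as a second reference. Gene counts were used as the authors deposited them: raw read counts per Entrez gene for 27179 genes in 1 table of all libraries. A second deposited table holds the same counts divided by size factors (a signal), from which the authors' size factors were recovered, and 100% of its values came out whole within 0.01. Expected counts and TPM per Ensembl gene were taken from the deposited single-library files, RSEM output per the file headers. The submitters' processing notes name STAR 2.4.2a, Picard 1.1073, RSEM 1.2.21, featureCounts, DESeq2 and the build mm10, without their roles. Symbols came from RefSeq for 25275 identifiers and from identical counts in the authors' tables for 582, and the other 1322 hold 0.982% of counts.

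Counts were fitted with edgeR 4.0.16 (R 4.3.3) over all 19 libraries by group, with TMM scaling, filterByExpr and quasi-likelihood tests. Calls needed a Benjamini-Hochberg adjusted p under 0.05 over all 13340 genes tested. The procedure was checked on simulated data. Alternatives were other scalings, filters, the compared libraries alone, a replicate block, DESeq2 1.42.0, rounded expected counts, limma 3.58.1 on log2(TPM + 0.1) and log2(TPM + 1), and leaving out each library. The authors' size factors were added as an alternative after seeing the data.

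By expression, the FSChi columns 3 and 4 of the count table were most like the single-library files labelled 4 and 5 (r = 0.965 and 0.962 across genes). FSChi column 5 was most like the file labelled 4 (r = 0.921), which column 3 matched more closely, and had no close file of its own. The file labelled 3 held 6807 expected counts and was left out. The library missing from the TPM and expected-count runs may therefore be that of column 5, not of column 3. The files of EpCAM replicates 1 and 2 matched each other's columns. All of this stayed within a group, but replicate numbers of TPM and count values may not name the same library. Intervals and floors cover counting error only. Named genes were up to 6 members of each of 39 gene lists with the smallest p, every tested member of the taste, acetylcholine, eicosanoid, type 2 and transcription factor lists, the 15 largest rises and 15 largest falls at a mean log2 CPM of at least 3 and above 1 CPM in at least 4 of 5 libraries of the higher group, without predicted gene models, and the marker and sort genes. The text names a part of these, and a few list members, though counted, are not reported here. Members and lists were chosen with earlier results of these data known, and Bmx, Skap2, Vav1, Lcp2, Dclk1, Krt5, Trp63, Foxi1, Omp, Cnga2, Gnal, Bpifa1 and the genes described as higher than both references were named after their values were seen.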

Additional observations from a re-analysis of the deposited data

Results flagged for a closer look

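In a group of 5 libraries, a library was picked out when its gap to the nearest of the others exceeded 0.71 of the whole range. Chance does so in about 1 in 20 groups. Of 383 groups of values examined, 35 (9.1%) were picked out.

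Among FSChi libraries, replicate 3 stood highest for the phospholipase gene Pla2g4a (323 CPM), the receptor chain gene Il13ra1 (553 CPM), Ptprc (18.01 CPM), the secreted protein genes Bpifb4 (86.0 CPM), Bpifb6 (88.7 CPM) and Dmbt1 (80.8 CPM), and for the summed leukotriene genes (2720.3 CPM). Replicate 5 stood highest for Tas1r1 (86.5 CPM) and Adora1 (45.7 CPM), replicate 1 for Ndufa1 (92.6 CPM) and replicate 2 for Tnc (731 CPM). Replicate 4 was apart for Rnf144a (5.04 CPM), Cxcl5 (1.12 CPM), Mki67 (24.6 CPM), Cd74 (8.59 CPM), Spink5 (15.1 CPM), Bpifb1 (10.8 CPM) and the summed MHC class II genes (59.7 CPM). Replicate 4 was also the FSChi library with the highest sums of secretory and sustentacular markers, and the part of these in its values was not tested.

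Among EpCAM libraries, replicate 5 stood highest for Gnb3 (16.3 CPM), Tas2r126 (1.05 CPM), Ascl2 (7.98 CPM), Ndufa1 (45.3 CPM), Cst3 (169.9 CPM) and Ovol3 (4.07 CPM), and for the sums of cell cycle genes (1023 CPM) and ribosomal protein genes (36245 CPM). The same replicate was lowest for Chat (0.151 CPM). Replicate 1 was highest for Tas2r108 (1.96 CPM), Ifi202b (75.8 CPM), Rgs14 (2.16 CPM) and the summed ciliated cell markers (435 CPM). Replicate 2 was highest for Rab3b (59.6 CPM), replicate 3 for Dmbt1 (2352 CPM) and Pde1a (8.05 CPM), and replicate 4 for Inpp5d (1.56 CPM).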

How the results depend on the processing

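Among 162 examined genes, no fold change called in the main or the alternative run changed sign between them. Changes of sign in genes called in neither run were not counted. Of 3242 values for FSChi against EpCAM, 3110 kept their side of the threshold, 111 lost the call and 21 gained it, and 137 genes kept theirs throughout. Against FSClow, 1098 of 1132 values for 47 genes kept their side and 34 lost the call. Expected counts gave 982 genes higher and 951 lower than EpCAM with 9482 genes tested, and 1375 and 499 against FSClow. On the log2(TPM + 0.1) scale 770 were higher and 899 lower (809 and 541 against FSClow). On the log2(TPM + 1) scale 801 were higher and 1388 lower (805 and 554 against FSClow). With only the compared libraries fitted, 1179 genes were higher than FSClow. The cause of these moves was not tested. The median log2 fold change over all genes moved from -0.02 to -0.14 with RLE scaling or DESeq2, -0.17 without a filter, -0.18 with the authors' size factors, and -0.29 and -0.19 on the TPM scales. Against FSClow the share of calls that were higher, 62.5%, was 73.3% without a filter and 73.4% with expected counts. Leaving out 1 library gave 1384 to 1870 genes higher and 1318 to 1858 lower than EpCAM, and 1836 to 2229 higher and 798 to 1342 lower than FSClow. Against EpCAM DESeq2 called 1630 higher and 2146 lower.

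Libraries with the same replicate number in FSChi and EpCAM deviated together with r between -0.058 and 0.270, so the numbers were not taken to pair them. With the number as a replicate block, 1612 genes were higher and 1659 lower than EpCAM, and 1398 higher and 584 lower than FSClow. FSChi replicate 2, with 1348428 counts, limits what could be detected at low levels.

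Counts of called list members against EpCAM moved by over 1.5 times mainly on the log2(TPM + 0.1) scale and with expected counts, where fewer genes and libraries were tested. With log2(TPM + 0.1) values the higher members fell from 9 to 3 for regulators of G protein signalling, from 10 to 5 for apical actin genes, from 4 to 2 for voltage-gated and potassium channels, from 3 to 1 for ion transport, from 8 to 2 for pan-epithelial genes and from 3 to 0 for keratins. The lower members fell from 4 to 1 for regulators of G protein signalling, from 7 to 3 for channels, from 10 to 6 for ion transport, from 7 to 2 for vesicle exocytosis, from 14 to 7 for olfactory neurons, from 9 to 4 for olfactory progenitors, from 8 to 3 for secretory markers, from 8 to 1 for cell cycle genes and from 4 to 1 for chemokines. With expected counts the lower members fell from 13 to 8 for sustentacular markers, from 11 to 6 for basal markers, from 20 to 13 for xenobiotic enzymes, from 8 to 2 for the Notch pathway, from 4 to 1 for keratins, from 3 to 1 for pan-epithelial genes and from 5 to 1 for early response genes. The higher members fell from 5 to 2 for MHC class I, from 10 to 4 for nuclear-encoded and from 4 to 0 for mitochondrially encoded respiratory genes, the last being 8 with the replicate block. The stricter filter left 3 of 9 lower ciliated markers, and DESeq2 called 6 pan-epithelial genes lower.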

Other observations

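Of 1109 olfactory receptor genes in the table, 16 passed the low-count filter. Of these, 3 were called higher in FSChi than in EpCAM, 1 lower and 12 not, beside 13.5% and 12.2% of all tested genes. Leaving out a library changed which genes passed the filter, so the following counts are not out of these 16. Without FSChi replicate 5 there was 1 higher, without EpCAM replicate 3 none lower, and without FSChi replicate 4 there were 9 lower. Without the low-count filter 18 were called higher and 124 lower by edgeR, beside 6.7% and 7.72% of the 24209 genes then tested. The summed level of all olfactory receptor genes was 259 to 999 CPM in FSChi and 754 to 1806 CPM in EpCAM. Olfr461 was singled out after its values were seen. It lies on chromosome 6 from 40544036 to 40544977 (GRCm38.p6), between the bitter receptor genes Tas2r108, which ends at 40494485, and Tas2r138, which starts at 40612315. It measured 50.1, 98.8, 44.6, 32.7 and 82.9 CPM in FSChi replicates 1 to 5, and in EpCAM 0.982 CPM in replicate 1 and 0 in the other 4 libraries. The groups did not overlap, and the log2 fold change was 8.16 ± 0.65 (SE). Without EpCAM replicate 1 it was at least 384-fold higher. In FSClow it measured 12.1 to 46.1 CPM with a median of 29.8 CPM, and FSChi was higher by 1.04 ± 0.35 on the log2 scale (edgeR adjusted p = 0.033), a call lost without FSChi replicate 2 (0.81) or 5 (0.93) and without FSClow replicate 6 (0.94). Olfr390 and Olfr397, the others called higher, were at 6.53 to 18.1 CPM and 1.68 to 5.32 CPM in FSChi and at 2.95 to 7.11 CPM and 0.151 to 1.56 CPM in EpCAM. Olfr397 and Olfr23, both on chromosome 11, had 68 and 72 counts in FSChi and 87 and 88 in FSClow, and may share reads. Olfr23 was not called (0.01), with EpCAM replicate 4 at 12.6 CPM. The call of Olfr390 (edgeR adjusted p = 0.048) was lost without any 1 library other than FSChi replicate 4 (log2 fold changes of 0.88 to 1.22), in DESeq2 and under other scalings, and that of Olfr397 without FSChi replicate 5 (1.62) and without a filter. Olfr672 was uneven between FSChi libraries, at 64.6 and 61.8 CPM in replicates 3 and 4 and at 0 in the other 3.

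Among taste receptors below the filter, Tas2r113 had 394 counts over the FSChi libraries and none in EpCAM, at least 172-fold higher against the floor of 3 counts. Tas2r104 had 305 counts and Tas2r102 had 285 against none, at least 133-fold and 125-fold higher. These 3 were picked after their values were seen, and reads shared with related receptors cannot be told apart.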
